A study of Mus musculus with 10 samples.

Results

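The 10 genes described here encode enzymes that make serine, asparagine, proline, cysteine and 1-carbon units: Phgdh, Psat1, Psph, Shmt2, Mthfd2, Asns, Aldh18a1, Pycr1, Cbs and Cth. They are 10 of the 52178 genes in the deposited table, and all 10 were among the 15298 genes with enough counts to be tested. They were chosen from their known enzyme roles with the exercise values of these same libraries in view, so their differences between groups are given as a description. Only the number past the threshold used for all genes is given beside the share of all genes past it, and nothing is read from that number. Expression was measured by RNA-seq of pancreatic islets from male C57Bl/6 retired breeder mice, with no genetic change named for either group. In the exercise group (5 libraries, exercise 6 to 10) the mice ran on a treadmill for 1 h a day, 5 days a week, over 2 weeks, at 17 cm/s and an incline of 5 degrees, after 3 days of acclimatization. The sedentary group (5 libraries, sedentary 1 to 5) came from mice of the same strain and sex labelled sedentary. All islets were released with collagenase, collected by hand and placed in a medium with 11 mM glucose. The labels do not say that each library is a separate animal. The p-values here therefore judge differences between groups against the spread between libraries, part of which may be technical.

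Serine is made from the glycolytic intermediate 3-phosphoglycerate in 3 steps, by Phgdh, Psat1 and Psph. In mitochondria Shmt2 moves a carbon unit from serine onto folate and Mthfd2 oxidizes the folate carrier, which feeds nucleotide and methionine synthesis. Asns makes asparagine from aspartate and glutamine, Aldh18a1 and Pycr1 make proline from glutamate, and Cbs and Cth carry sulfur from homocysteine into cysteine. Many of these genes are known targets of ATF4, a transcription factor whose translation increases when cells are short of amino acids or carry unfolded protein in the endoplasmic reticulum.

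The promoter windows of the genes are shown because ATF4, paired with a C/EBP protein, is known to bind a composite element with the core TGATGNAA. The windows are those of RefSeq on build GRCm38.p6 and run from 250 bases before to 50 bases after the start of the gene, and 9 of the 10 genes had at least 1 window. Both strands were searched, and matches are in capitals. Asns lies on the minus strand at chr6:7693160-7693459 and Pycr1 on the minus strand at chr11:120643699-120643998, and each had 1 match. Phgdh, on the minus strand at chr3:98339920-98340219, is shown as a gene of similar fold change to Asns whose window had no match.
Asns: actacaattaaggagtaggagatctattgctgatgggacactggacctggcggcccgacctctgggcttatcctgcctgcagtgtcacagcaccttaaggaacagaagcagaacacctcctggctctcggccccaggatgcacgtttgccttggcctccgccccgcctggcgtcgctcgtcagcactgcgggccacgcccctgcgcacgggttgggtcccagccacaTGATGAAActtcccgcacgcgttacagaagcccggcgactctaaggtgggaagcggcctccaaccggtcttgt
Pycr1: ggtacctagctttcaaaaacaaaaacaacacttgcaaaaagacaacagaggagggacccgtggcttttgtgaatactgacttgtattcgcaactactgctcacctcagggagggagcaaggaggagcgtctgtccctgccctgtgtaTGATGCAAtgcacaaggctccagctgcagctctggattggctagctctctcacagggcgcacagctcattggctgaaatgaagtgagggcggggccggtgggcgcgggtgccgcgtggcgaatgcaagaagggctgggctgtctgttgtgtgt
Phgdh: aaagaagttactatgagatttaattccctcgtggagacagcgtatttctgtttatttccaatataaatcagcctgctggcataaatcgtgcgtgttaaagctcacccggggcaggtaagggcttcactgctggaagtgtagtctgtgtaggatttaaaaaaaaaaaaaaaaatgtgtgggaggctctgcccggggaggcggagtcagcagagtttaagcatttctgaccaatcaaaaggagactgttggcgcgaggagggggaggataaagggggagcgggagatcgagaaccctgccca
The match read TGATGAAA in Asns, starting 23 bases before the start of the gene, and TGATGCAA in Pycr1, starting 103 bases before it. The core was found in 2 of the 10 windows of these genes (20%) and in 1304 of all 32851 windows (3.97%). In the list of ATF4, its other targets and its upstream kinases, it was found in 12 of 39 windows (30.8%). Those windows belong to 32 of the 39 genes listed, and 12 of the 32 had the core. No window was found under the symbols of the other listed genes. The core shares letters with other motifs of the ATF and C/EBP families. A match is a run of letters and not a shown binding site, and a window without one says only that these letters are not in it.

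Library totals lay between 16461369 and 23222704 estimated counts in exercise and between 15081922 and 20670174 in sedentary. The islet label was checked against beta cell markers: 10 genes including Ins1 and Ins2 took 15.2 ± 3.62% of counts in exercise and 12.9 ± 9.85% in sedentary (SD, n = 5 each). Sedentary 1 and 2 stood apart, at 0.864% and 4.06%, against 16.3, 20.1 and 23.0% in sedentary 3, 4 and 5. Every list of marker genes of other cell types had counts for each of its genes. The acinar list (18 genes for digestive enzymes and regulators of the exocrine pancreas) held 18.3 ± 4.15% in exercise (14.7 to 24.7%) and 10.2 ± 2.81% in sedentary (6.92 to 13.9%), with no overlap (adjusted p = 0.0291 over 11 lists, exact two-sided permutation test, higher in 5 of 5 exercise libraries). The small intestinal list, 14 genes, took 0.0520 ± 0.0242% in exercise (0.0210 to 0.0791%) and 0.946 ± 0.771% in sedentary (0.328 to 2.08%, highest in sedentary 1 and 2), again without overlap (adjusted p = 0.0291, exact permutation test). The stomach list of 6 genes (adjusted p = 0.0291) and the duct list of 6 genes (adjusted p = 0.0437, both exact permutation tests) were lower in exercise, at 6.95e-05% and 0.0181% in exercise against 0.105% and 0.0538% in sedentary. The stomach difference of -0.105 points was -0.00227 without sedentary 1, and the duct difference of -0.0357 points was -0.0193 without sedentary 2. Neither list passed without sedentary 1 and 2 (adjusted p = 0.0655 each) or without any 1 exercise library (adjusted p up to 0.829 and 0.204, exact permutation tests). The stomach shares of the groups did not overlap in any of these cases. Without sedentary 1 and 2 the stomach p of 0.0179 (exact permutation test, unadjusted) was the smallest that 56 arrangements allow. With 1 exercise library left out, the stomach test compared means that rested on sedentary 1 (0.514%). It therefore cannot show whether the difference holds in the other sedentary libraries. The beta, alpha and delta cell, endothelial, macrophage, lymphocyte and fibroblast lists did not pass, with adjusted p of 0.367 to 0.992 by the same exact permutation test. In bulk tissue, fewer cells of a type and less RNA per cell cannot be told apart. Values below are counts scaled to library size (CPM) with edgeR's TMM factors, and each fold change is exercise over sedentary. The factors were 0.669 (exercise 9) to 1.06 (exercise 10) in exercise and 1.07 (sedentary 1) to 1.2 (sedentary 3) in sedentary. The marker shares are of library totals, without these factors.

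The 3 serine synthesis genes were higher in all 5 exercise libraries than in all 5 sedentary ones. Phgdh (ENSMUSG00000053398), encoding the dehydrogenase that commits 3-phosphoglycerate to serine, was at 121, 112, 94.1, 146 and 99.0 CPM in exercise 6, 7, 8, 9 and 10. Sedentary 1, 2, 3, 4 and 5 held 56.2, 27.8, 49.7, 59.0 and 49.1 CPM of Phgdh. Exercise 9 was the highest of all, sedentary 2 the lowest, and the groups did not overlap. Phgdh averaged 114 ± 20.4 CPM in exercise and 48.4 ± 12.2 CPM in sedentary (SD, n = 5 each), a log2 fold change of 1.24 ± 0.21 (SE), or 2.36-fold, and of 1.15 without sedentary 1 and 2. Psat1 (ENSMUSG00000024640), encoding the aminotransferase of the middle step, was at 39.6, 40.2, 31.2, 55.8 and 33.8 CPM in exercise 6 to 10, and at 27.5, 14.7, 18.7, 22.1 and 14.0 CPM in sedentary 1 to 5. Exercise 9 was again the highest library, and the lowest exercise library, exercise 8, lay just above sedentary 1. The means of Psat1 were 40.1 ± 9.58 CPM in exercise and 19.4 ± 5.58 CPM in sedentary, a log2 fold change of 1.05 ± 0.22 (1.16 without sedentary 1 and 2). Psph (ENSMUSG00000029446), encoding the phosphatase that releases serine, was at 8.66, 9.31, 8.52, 8.50 and 10.2 CPM in exercise 6 to 10, and at 6.33, 5.46, 7.21, 6.26 and 6.80 CPM in sedentary 1 to 5. In TMM-scaled CPM its libraries lay close together within each group, and the gap between the groups was small. On library totals the groups overlapped, with 132 of 23222704 counts in exercise 9 and 130 of 15081922 in sedentary 3. Psph averaged 9.04 ± 0.731 CPM in exercise and 6.41 ± 0.657 CPM in sedentary, and its log2 fold change of 0.49 ± 0.14 (0.45 without sedentary 1 and 2) was the smallest of the 3 serine genes.

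**Figure D1:**
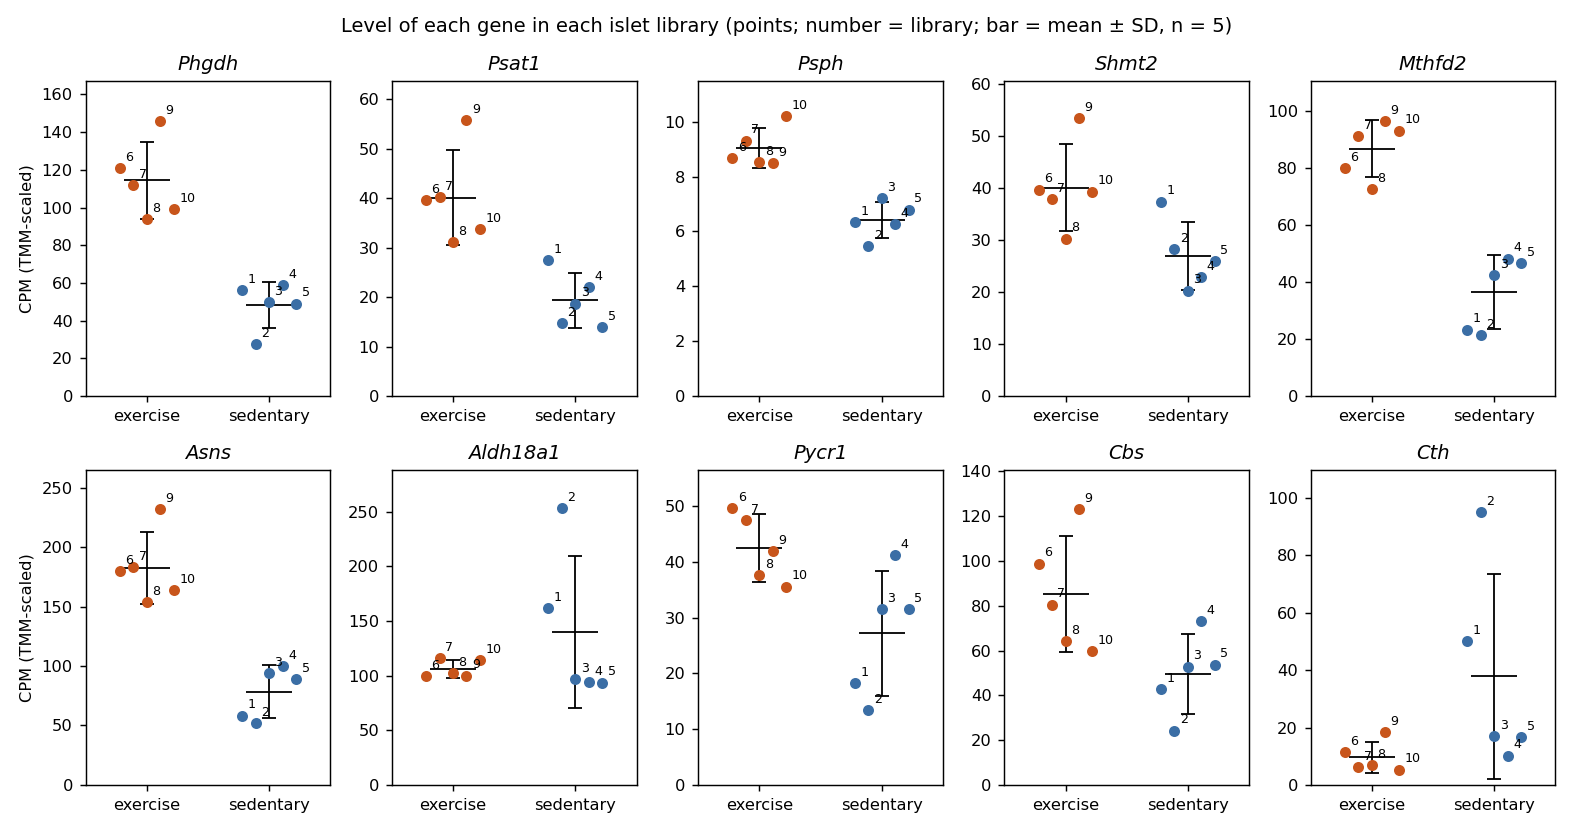
Level of each of the 10 genes in CPM (vertical axes, TMM-scaled, each from 0) in every exercise library (left, orange) and sedentary library (right, blue), with the library number beside each point and bars for the mean ± SD of 5 libraries. Phgdh, Psat1, Psph, Mthfd2 and Asns show no overlap between groups, while Aldh18a1 and Cth reach 253 and 95.2 CPM in sedentary 2.

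The mitochondrial 1-carbon genes differed in how clearly the groups separated. Mthfd2 (ENSMUSG00000005667), encoding the mitochondrial methylenetetrahydrofolate dehydrogenase, was at 80.1, 91.3, 72.8, 96.7 and 93.3 CPM in exercise 6 to 10, and at 23.4, 21.5, 42.4, 48.3 and 46.8 CPM in sedentary 1 to 5. The groups did not overlap, and sedentary 1 and 2 were at about the same low level, below the other 3 sedentary libraries. Mthfd2 averaged 86.8 ± 10.0 CPM in exercise and 36.5 ± 13.0 CPM in sedentary, with a log2 fold change of 1.25 ± 0.24, or 2.38-fold, the highest of the 10 genes but close to Phgdh, and of 0.95 without sedentary 1 and 2. Shmt2 (ENSMUSG00000025403), encoding the mitochondrial serine hydroxymethyltransferase, was at 39.7, 37.8, 30.3, 53.4 and 39.3 CPM in exercise 6 to 10, and at 37.4, 28.3, 20.3, 22.9 and 25.9 CPM in sedentary 1 to 5. Sedentary 1 lay among the exercise libraries, so the groups overlapped, and all exercise libraries were above sedentary 2 to 5. The means of Shmt2 were 40.1 ± 8.34 CPM in exercise and 27.0 ± 6.56 CPM in sedentary, a log2 fold change of 0.57 ± 0.20 with all libraries and of 0.82 without sedentary 1 and 2.

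Asns (ENSMUSG00000029752), encoding asparagine synthetase, had the highest level per kilobase of the 10 genes in exercise. Its level was 180, 183, 154, 232 and 164 CPM in exercise 6 to 10, and 58.3, 51.8, 94.1, 99.8 and 88.8 CPM in sedentary 1 to 5. The lowest exercise library was 1.55 times the highest sedentary library, and sedentary 1 and 2 lay below the other 3. Asns averaged 183 ± 30.2 CPM in exercise and 78.6 ± 22.0 CPM in sedentary, with a log2 fold change of 1.22 ± 0.21 (2.33-fold) and of 0.98 without sedentary 1 and 2.

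The proline synthesis genes overlapped between groups. Aldh18a1 (ENSMUSG00000025007), encoding the synthase of pyrroline-5-carboxylate at the entry of the pathway, was at 99.5, 116, 102, 99.9 and 114 CPM in exercise 6 to 10, and at 162, 253, 96.5, 93.9 and 93.6 CPM in sedentary 1 to 5. The high values were those of sedentary 1 and 2, where the intestinal marker share was highest too, and the other 8 libraries lay within a narrow range. Its means were 106 ± 7.98 CPM in exercise and 140 ± 69.5 CPM in sedentary, and its log2 fold change of -0.39 ± 0.28 turned to 0.19 ± 0.09 without sedentary 1 and 2. Pycr1 (ENSMUSG00000025140), encoding the mitochondrial reductase of the last step, was at 49.6, 47.5, 37.7, 42.0 and 35.6 CPM in exercise 6 to 10, and at 18.2, 13.4, 31.6, 41.2 and 31.5 CPM in sedentary 1 to 5. Sedentary 4 lay within the exercise range, and sedentary 1 and 2 were far below the rest. Pycr1 averaged 42.5 ± 6.04 CPM in exercise and 27.2 ± 11.2 CPM in sedentary, with a log2 fold change of 0.64 ± 0.28, and 0.31 without sedentary 1 and 2. The part that the intestinal share plays in the levels of sedentary 1 and 2 was not tested.

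The pair of transsulfuration genes went in opposite directions, each with overlap. Cbs (ENSMUSG00000024039), encoding cystathionine beta-synthase, was at 98.8, 80.5, 64.1, 123 and 59.8 CPM in exercise 6 to 10, and at 42.7, 24.2, 52.8, 73.2 and 53.7 CPM in sedentary 1 to 5. Sedentary 4 was above exercise 8 and 10. In TMM-scaled CPM the exercise libraries ranked in the same order, 9, 6, 7, 8 and 10, as their acinar marker share, which is of library totals. On library totals Cbs did not keep this order, being higher in exercise 6 (1768 of 21207404 counts) than in exercise 9 (1917 of 23222704). The sedentary libraries did not share an order: sedentary 1 had the highest acinar share of its group, 13.9%, and the second lowest Cbs. Cbs averaged 85.3 ± 26.3 CPM in exercise and 49.3 ± 17.9 CPM in sedentary, a log2 fold change of 0.79 ± 0.29, and 0.53 without sedentary 1 and 2. Cth (ENSMUSG00000028179), encoding cystathionine gamma-lyase, was at 11.3, 6.12, 6.79, 18.5 and 5.32 CPM in exercise 6 to 10, and at 50, 95.2, 17.1, 10.2 and 16.7 CPM in sedentary 1 to 5. Within the sedentary group Cth had the order 2, 1, 3, 5 and 4, which is also the order of the intestinal marker share. In TMM-scaled CPM exercise 9 lay above sedentary 3, 4 and 5. On library totals exercise 9 (288 of 23222704 counts) lay below sedentary 3 (309 of 15081922) and sedentary 5 (341 of 17226558). Within the exercise group Cth did not follow the intestinal share. It was highest in exercise 9, where that share was lowest (0.0210%), and lowest in exercise 10, where that share was highest (0.0791%). Cth averaged 9.61 ± 5.51 CPM in exercise and 37.9 ± 35.6 CPM in sedentary, and its log2 fold change of -1.98 ± 0.63 shrank to -0.59 without sedentary 1 and 2. Whether the acinar and intestinal shares account for these orders was not tested.

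**Figure D2:**
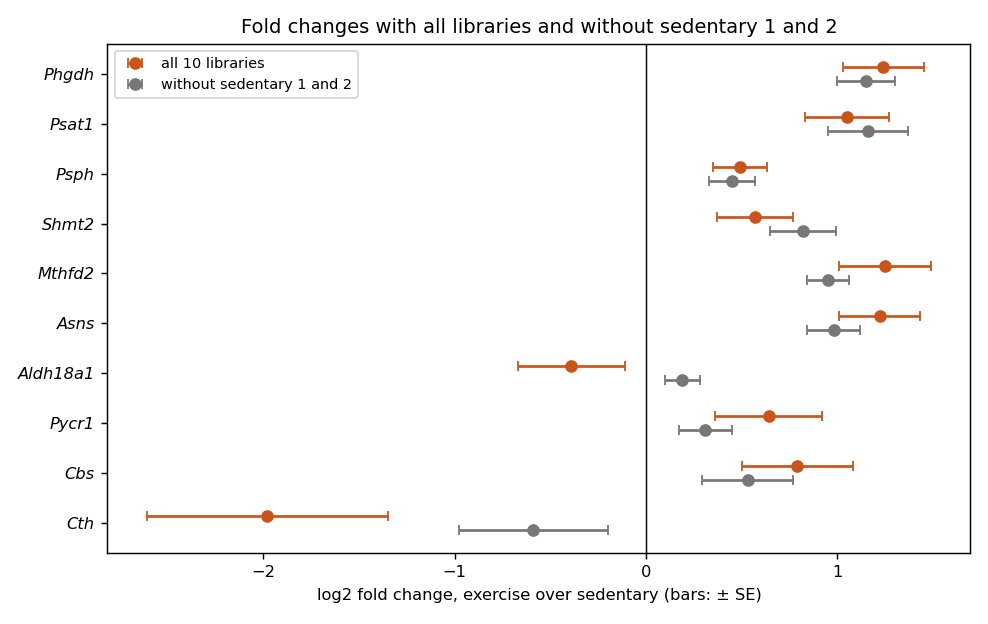
Log2 fold change of each gene, exercise over sedentary (horizontal axis), with all 10 libraries (orange) and without sedentary 1 and 2 (grey); bars are ± SE. Without these libraries Aldh18a1 changes sign to 0.19, Cth shrinks to -0.59, and Phgdh and Psat1 stay at 1.15 and 1.16.

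Of the 10 genes, 5 (Phgdh, Psat1, Psph, Mthfd2 and Asns) were past an adjusted p of 0.05 toward exercise by edgeR's quasi-likelihood test. The background was 2.44% of all 15298 genes tested toward exercise and 11.4% toward sedentary. Toward exercise DESeq2 called 7, with Shmt2 and Cbs added, and limma-voom called 4, without Psph. No member was past the threshold toward sedentary by edgeR or limma-voom (edgeR, 1 at an unadjusted p under 0.05), whereas DESeq2 called 1, Cth. Psph was the least steady of the 5, being past the threshold in 1 of the 10 fits that left out 1 library each, the fit without sedentary 3. Shmt2 was also past it without sedentary 1, Pycr1 and Cbs without sedentary 4, and Cth, toward sedentary, without sedentary 3 or 4. Without sedentary 1 and 2 the count was 6, with Shmt2 added, where 4.10% of genes tested were called higher and 8.68% lower. In 5 of the 10 genes all exercise libraries lay above all sedentary libraries, against 6.24% of all genes tested, and in 11.4% of all genes tested they all lay below. The median log2 fold change of the 10 genes was 0.72, and 0.68 without sedentary 1 and 2, against -0.00 and 0.03 for all genes tested.

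Levels between genes were compared as CPM per kilobase of the longest coding transcript (GENCODE M21). Asns came first in exercise at 90.7 and Phgdh came next at 60.4 CPM per kilobase, against 39.0 and 25.5 in sedentary. Mthfd2, at 41.6, and Aldh18a1, at 30.1, followed in exercise, with 17.5 and 39.6 in sedentary. In sedentary 3 to 5 alone, Aldh18a1 was at 26.8 and Asns at 46.8, so Aldh18a1 came below Asns there as in exercise. Shmt2, Psat1, Pycr1 and Cbs lay between 13.7 and 17.5 in exercise, within the spread of their libraries of each other, and between 7.41 and 11.8 in sedentary. Psph and Cth were the lowest in exercise, at 5.22 and 5.30 CPM per kilobase, while in sedentary they were at 3.70 and 20.9. The level of Cth rested on sedentary 1 and 2, and was 8.09 CPM per kilobase in sedentary 3 to 5.

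In TMM-scaled CPM, exercise 9 was the highest exercise library for 7 of the 10 genes, and exercise 8 the lowest for 5. Exercise 9 had the lowest TMM factor, 0.669, and on library totals the ranks differ. Mthfd2, for example, took 1501 of 23222704 counts in exercise 9 and 1912 of 19352104 in exercise 10. Relative to the mean of the other 4 exercise libraries, exercise 9 stood at 1.37 for Phgdh, 1.54 for Psat1, 1.36 for Asns, 1.45 for Shmt2, 1.15 for Mthfd2, 1.63 for Cbs and 2.51 for Cth. It stood at 0.927 for Psph, where it was the lowest exercise library, 0.926 for Aldh18a1 and 0.986 for Pycr1. The acinar share of exercise 9, which is of library totals without the TMM factor, stood at 1.48 times the mean of the other 4. In the sedentary group, sedentary 2 was the lowest library for 6 of the 10 genes. The mean of sedentary 1 and 2 over that of sedentary 3 to 5 was 0.489 for Mthfd2, 0.455 for Pycr1, 0.584 for Asns, 0.559 for Cbs, 0.799 for Phgdh and 0.873 for Psph. It was 1.16 for Psat1, 1.43 for Shmt2, 2.19 for Aldh18a1 and 4.94 for Cth. The coefficient of variation of Aldh18a1 was 7.50% in exercise and 49.7% in sedentary, and 1.70% in sedentary 3 to 5 alone.

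**Figure D3:**
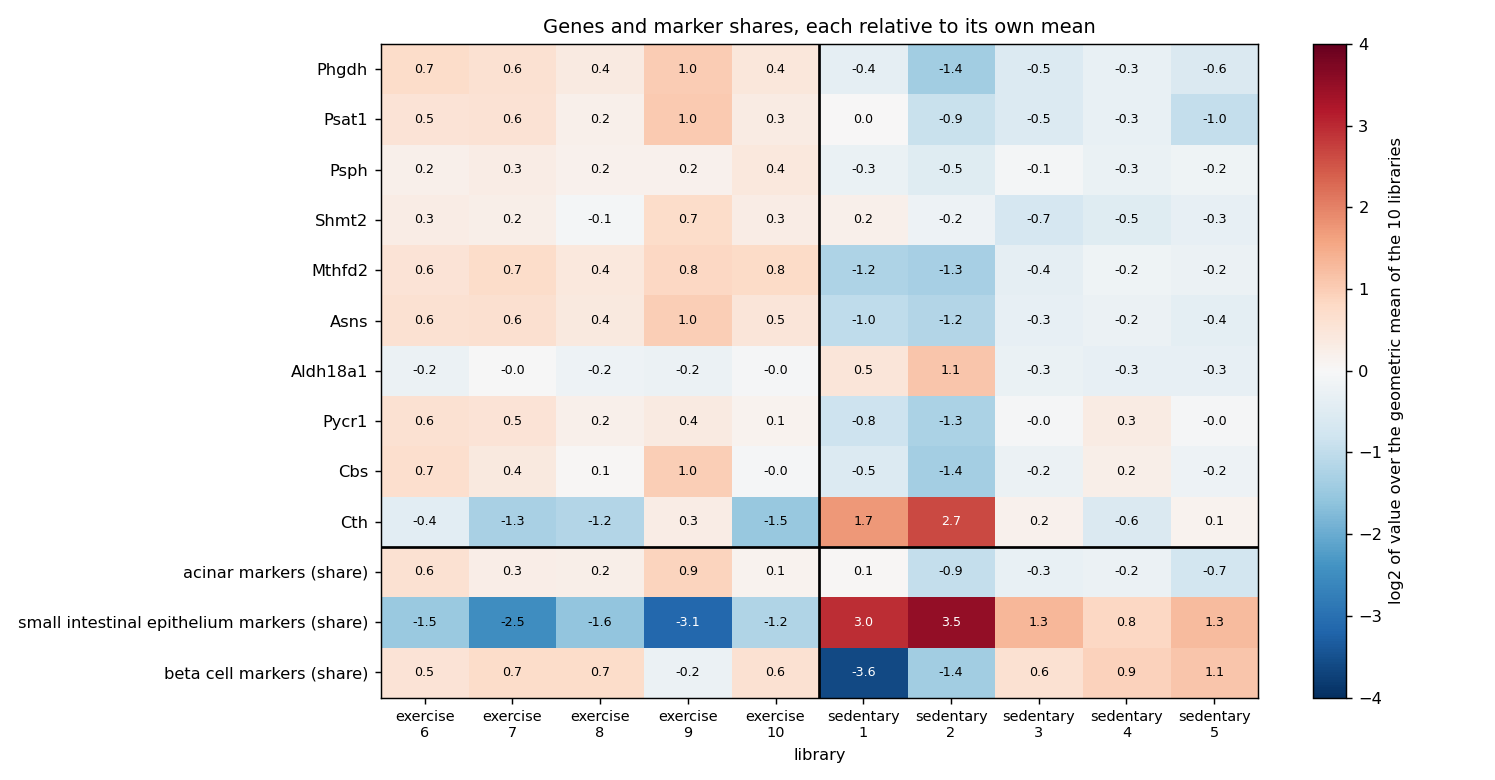
Log2 of each value over the geometric mean of the 10 libraries, for the CPM of the 10 genes and the count shares of 3 marker lists (vertical axis), in each library (horizontal axis, exercise left of sedentary). Sedentary 1 and 2 are low for most genes and beta cell markers but high for Aldh18a1, Cth and the intestinal markers, and exercise 9 is high for 7 genes and the acinar markers. The CPM are TMM-scaled, while the shares are of library totals.

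Marker levels used as covariates were the mean log2 CPM (TMM-scaled) over the tested genes of a marker list, not the share of counts. With the acinar level of each library as a covariate, which shared 0.636 of its variance with the group, the log2 fold changes were 1.20 ± 0.43 for Mthfd2, 0.87 ± 0.35 for Asns, 0.62 ± 0.26 for Phgdh and 0.26 ± 0.20 for Psat1. Cbs was then at -0.08 ± 0.40, against 0.79 without the covariate. With the intestinal level as a covariate, which shared 0.801 of its variance with the group, the values were 0.76 ± 0.51 for Psat1, 0.53 ± 0.40 for Phgdh, 0.12 ± 0.26 for Asns and -0.0005 ± 0.25 for Mthfd2. Neither model called any gene of the table (edgeR, with 1747 and 478 genes at an unadjusted p under 0.05), so the group and these marker levels cannot be told apart in such a model. DESeq2 and limma-voom were run without covariates.

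The other genes of serine, glycine and folate metabolism went in both directions. Of 29 listed, 27 were tested, of which 4 rose (14.8%) and 4 fell (14.8%), against 2.44% and 11.4% of all genes tested, with a median log2 fold change of 0.05. In the fit without sedentary 1 and 2, 2 rose and 2 fell. With 1 library left out, 1 to 4 rose and 2 to 9 fell: 1 rose without exercise 6, 7 or 9 or sedentary 1, 2 or 5, 2 rose without exercise 8, 2 fell without any 1 exercise library or sedentary 1 or 2, and 9 fell without sedentary 4. DESeq2 called 5 higher and 9 lower, and limma-voom 1 and 1. Aldh1l2, which oxidizes formyl-folate in mitochondria, rose to 102 ± 18.5 CPM in exercise, against 39.8 ± 19.6 CPM in sedentary (log2 fold change 1.36 ± 0.31, edgeR adjusted p = 0.0198, and 0.0553 without exercise 7). It was 1.03 without sedentary 1 and 2. Gnmt, which methylates glycine, rose to 30 ± 13.3 CPM, against 14.1 ± 2.31 CPM in sedentary (1.09 ± 0.28, edgeR adjusted p = 0.0298), and did not pass without sedentary 1 and 2 (edgeR adjusted p = 0.0602) or without exercise 6 or 9 or sedentary 1, 2 or 5 alone (highest 0.0714). Shmt1, the cytosolic counterpart of Shmt2, fell to 1.11 ± 0.205 CPM, against 14.4 ± 15.2 CPM in sedentary (-3.69 ± 0.68, edgeR adjusted p = 0.00927). Slc46a1, the proton-coupled folate transporter of the intestine, fell to 10.3 ± 3.72 CPM, against 105 ± 75.9 CPM in sedentary (-3.35 ± 0.52, edgeR adjusted p = 0.00900). Without sedentary 1 and 2 the log2 fold changes of Shmt1 and Slc46a1 were smaller, at -2.26 and -2.27. The cytosolic trifunctional enzyme gene Mthfd1 was at 63.0 ± 2.60 CPM in exercise and 60.5 ± 12.6 CPM in sedentary. Its mitochondrial relative Mthfd1l was at 22.5 ± 2.96 CPM in exercise and 16.3 ± 5.62 CPM in sedentary. Mthfd2l, the paralogue of Mthfd2, was at 3.49 ± 0.478 CPM in exercise and 2.89 ± 0.671 CPM in sedentary. The adjusted p-values of these 3 were 0.799, 0.200 and 0.396 by edgeR, and no call was made.

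Among genes of the methionine cycle and sulfur metabolism, 20 of 22 were tested, 0 rose and 2 fell (10.0%, near the 11.4% of all genes tested) by edgeR, with a median log2 fold change of -0.08. At an unadjusted p under 0.05 edgeR had 2 higher and 7 lower, while DESeq2 called 1 higher and 6 lower and limma-voom called none. In the 8 libraries other than sedentary 1 and 2, 1 rose and 2 fell by edgeR. With 1 library left out 0 to 6 fell, with 0 without exercise 7, 8, 9 or 10 or sedentary 1, 1 without exercise 6, and 6 without sedentary 4. Gss, encoding glutathione synthetase, fell to 9.23 ± 1.56 CPM in exercise, against 34.8 ± 27.0 CPM in sedentary (-1.91 ± 0.46, edgeR adjusted p = 0.0237), and by 0.87 without sedentary 1 and 2. The Gss call was lost without exercise 7, 8, 9 or 10 or sedentary 1 (highest edgeR adjusted p = 0.0669). Mpst, which transfers sulfur from mercaptopyruvate, fell to 5.96 ± 1.06 CPM, against 12.0 ± 5.00 CPM in sedentary (-1.01 ± 0.28, edgeR adjusted p = 0.0387), and did not pass without sedentary 1 and 2 (edgeR adjusted p = 0.0941), without any 1 exercise library or without sedentary 1, 2 or 5 (highest 0.0999).

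Proline and ornithine genes outside the synthesis route were mostly lower in exercise. Of 10 listed, 9 were tested, 6 fell (66.7%, against 11.4% of all genes tested) and 0 rose by edgeR, with a median log2 fold change of -1.30. DESeq2 called 6 lower and limma-voom 3, and none was higher by either or at an edgeR unadjusted p under 0.05. Without sedentary 1 and 2, 6 fell as well, with a median of -0.75. Otc, which makes citrulline from ornithine in liver and intestine, fell to 1.26 ± 1.04 CPM in exercise, against 60.9 ± 64.9 CPM in sedentary (-5.57 ± 0.96, edgeR adjusted p = 0.00900). Arg2, the mitochondrial arginase, fell to 9.84 ± 5.81 CPM, against 263 ± 257 CPM in sedentary (-4.74 ± 0.79, edgeR adjusted p = 0.00900). Oat, which interconverts ornithine and pyrroline-5-carboxylate, fell to 14.8 ± 4.36 CPM, against 193 ± 220 CPM in sedentary (-3.70 ± 0.73, edgeR adjusted p = 0.0113). Each of the 3 was lower without sedentary 1 and 2 as well, with log2 fold changes of -3.79 for Otc, -3.13 for Arg2 and -2.06 for Oat. Pepd, the peptidase that frees proline from dipeptides, fell to 28.0 ± 2.21 CPM, against 77.4 ± 42.2 CPM in sedentary (-1.47 ± 0.32, edgeR adjusted p = 0.0164, and 0.0501 without exercise 7). Leaving out sedentary 1 and 2 gave -0.75 for Pepd. Pycr3, the cytosolic reductase listed under its older symbol Pycrl, fell to 11.3 ± 0.990 CPM, against 28.0 ± 14.2 CPM in sedentary (-1.30 ± 0.29, edgeR adjusted p = 0.0176, and 0.0531 without exercise 8), with the same -0.75 without sedentary 1 and 2. The proline-degrading Prodh did not pass, and was at 5.32 ± 2.17 CPM in exercise and 6.46 ± 5.18 CPM in sedentary (edgeR adjusted p = 0.704). The small intestinal share was also lower in exercise, at 0.0520% against 0.946% in sedentary, and its part in these falls was not tested.

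Around asparagine, 14 of 15 genes of aspartate, glutamate and glutamine metabolism were tested, of which 3 rose (21.4%) and 4 fell (28.6%), against 2.44% and 11.4% of all genes tested, with a median log2 fold change of -0.41. With 1 library left out 2 to 5 fell, with 2 without exercise 7, 8, 9 or 10 or sedentary 1 or 2. Library totals gave 8 falls and limma-voom 1. Without sedentary 1 and 2, 3 rose and 3 fell, with a median of -0.06. Gls2, a glutaminase, rose to 20.7 ± 10.2 CPM in exercise, against 6.61 ± 1.33 CPM in sedentary (1.65 ± 0.30, edgeR adjusted p = 0.00929). Gpt2, the mitochondrial alanine aminotransferase, rose to 25.5 ± 5.73 CPM, against 12.2 ± 3.51 CPM in sedentary (1.06 ± 0.23, edgeR adjusted p = 0.0153). The third was Glul, glutamine synthetase, picked after its value was seen, at 439 ± 154 CPM in exercise and 176 ± 76.3 CPM in sedentary (1.32 ± 0.35, edgeR adjusted p = 0.0333). The Glul call was lost without sedentary 2 or any 1 exercise library (highest edgeR adjusted p = 0.0806), exercise 9 being far above the rest at 712 CPM. Aspa, which splits acetylaspartate, fell to 0.616 ± 0.215 CPM, against 7.08 ± 5.81 CPM in sedentary (-3.50 ± 0.58, edgeR adjusted p = 0.00900). Slc25a13, a mitochondrial aspartate-glutamate carrier, fell to 3.99 ± 0.651 CPM, against 14.8 ± 8.63 CPM in sedentary (-1.89 ± 0.38, edgeR adjusted p = 0.0114). Leaving out sedentary 1 and 2, the log2 fold changes of Gls2, Gpt2 and Glul were 1.68, 1.13 and 0.95, and those of Aspa and Slc25a13 were smaller, at -2.29 and -1.09. The acinar share (18.3% in exercise, 10.2% in sedentary) and the intestinal share (0.0520% in exercise, 0.946% in sedentary) differed between the same libraries, and their part in these changes was not tested.

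ATF4 and its other known targets were listed because many of the 10 genes are known ATF4 targets. The list also holds Eif2ak1, Eif2ak2, Eif2ak3 and Eif2ak4, whose products are kinases that act upstream of ATF4. Of 39 listed, 38 were tested, of which 17 rose and 0 fell by edgeR, with a median log2 fold change of 0.59, where 2.44% of all genes tested rose and 11.4% fell. The 17 include the upstream kinase genes Eif2ak3 and Eif2ak4. At an unadjusted p under 0.05, 22 were higher and 1 lower by edgeR, and DESeq2 and limma-voom called 22 and 14 higher and 0 lower. Without sedentary 1 and 2, 23 of 39 tested rose and 0 fell, with a median of 0.42. With 1 library left out 9 to 20 rose, the 9 without exercise 7, and 1 fell without sedentary 4. Library totals gave 7 rises and 2 falls, and either marker covariate gave 0 of each, as it did over all genes tested. Nupr1, a stress-induced chromatin protein gene, rose to 889 ± 307 CPM in exercise, against 245 ± 53.2 CPM in sedentary (1.86 ± 0.26, edgeR adjusted p = 0.00900). Slc7a11, encoding the cystine importer, rose to 3.88 ± 0.888 CPM, against 1.42 ± 0.236 CPM in sedentary (1.45 ± 0.23, edgeR adjusted p = 0.00900). Eif4ebp1, an inhibitor of cap-dependent translation, rose to 41.4 ± 8.95 CPM, against 16.5 ± 2.09 CPM in sedentary (1.33 ± 0.17, edgeR adjusted p = 0.00900). Cars, the cysteinyl-tRNA synthetase gene, rose to 67.0 ± 5.26 CPM, against 31.6 ± 7.34 CPM in sedentary (1.08 ± 0.17, edgeR adjusted p = 0.00900). Atf4 itself, whose control is known to be mainly translational, was at 217 ± 20.4 CPM in exercise and 186 ± 48.2 CPM in sedentary (0.22 ± 0.19, edgeR adjusted p = 0.416). Its targets Ddit3, encoding the stress transcription factor CHOP, and Trib3, a pseudokinase gene, did not pass either (edgeR adjusted p = 0.368 and 0.0928). Ddit3 was at 9.63 ± 1.21 CPM in exercise and 11.4 ± 2.71 CPM in sedentary, and Trib3 at 7.65 ± 1.48 CPM in exercise and 4.72 ± 1.53 CPM in sedentary. This list, like the 10 genes, was assembled with results of these libraries known, so its counts are no independent evidence of a direction, and the acinar share, 18.3% in exercise and 10.2% in sedentary, differed between the same libraries.

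**Figure D4:**
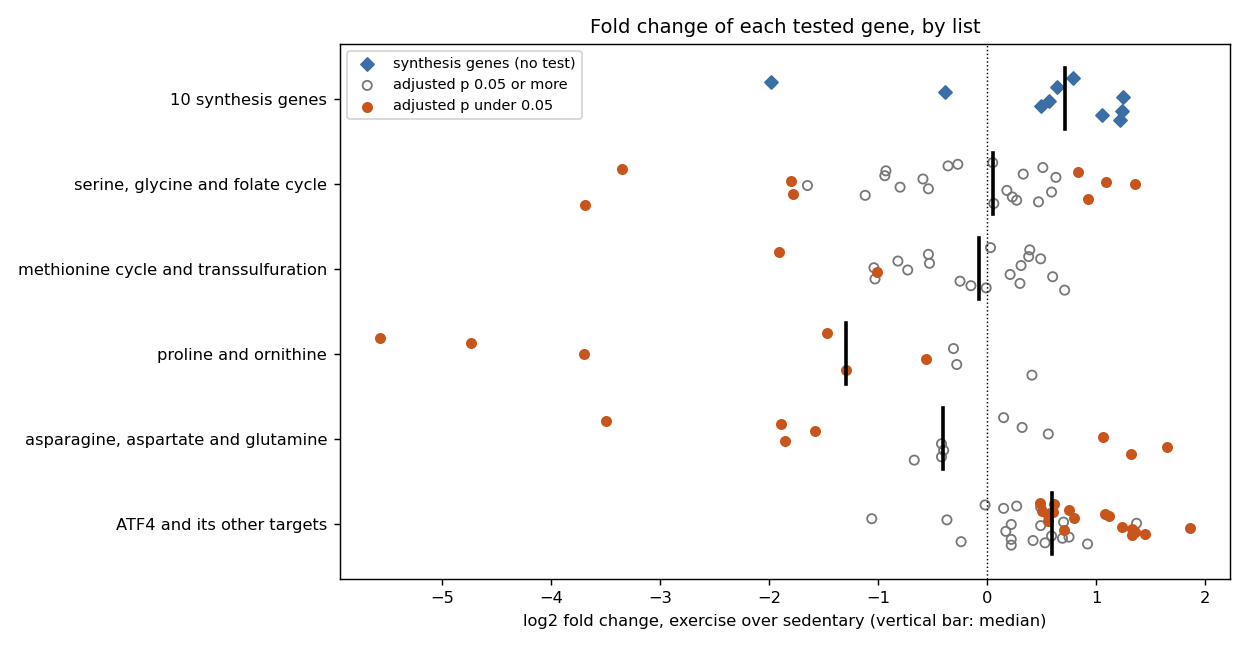
Log2 fold change, exercise over sedentary (horizontal axis), of each tested gene in the 10 synthesis genes (diamonds, no test) and in 5 lists of related genes (filled circles: edgeR adjusted p under 0.05; open circles: 0.05 or more); vertical bars are medians. The ATF4 list has its median at 0.59 with 17 rises and 0 falls, and the proline and ornithine list at -1.30 with 6 falls and 0 rises.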

How the data were processed

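Islet RNA was sequenced in 10 stranded mRNA libraries, grouped by the treatment label. The authors deposited estimated counts per Ensembl gene, made with fastp and kallisto per the submitters' processing notes. Neither versions, nor the genome build, the annotation or how transcripts became genes, were given in the sources used here. Non-whole values made up 12.6% of the table (tolerance 1e-06). For Psph and Cbs this held in all 10 libraries, for Pycr1 in 9 and for Phgdh in 3, so these may share reads with other sequences and are less certain. Estimated counts were rounded. Depth was 15081922 to 23222704 counts per library, and errors cover these libraries only.

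Genes were tested in R 4.3.3 with edgeR 4.0.16 (TMM scaling, default filter with minimum count 10 and minimum total 15, quasi-likelihood test, Benjamini-Hochberg over 15298 genes, threshold 0.05), a step tested on simulated data. Count shares of 11 marker lists were compared by exact two-sided permutation over 252 arrangements. Alternatives were RLE factors or library totals, marker genes left out of the scaling, a minimum count of 30 or no filter, DESeq2 1.42.0, limma-voom (limma 3.58.1), log10 shares, acinar or intestinal covariates, and leaving out each library or sedentary 1 and 2. Named genes are the 10 members, in each of 5 related lists the 4 of smallest p past the threshold, and paralogues, partners and regulators fixed by name; of the most abundant markers, which the rule also names, values are given where a result turns on them. Of the genes so named, 1 is not reported here but stays in the counts. The members and lists were chosen with earlier results of these data known.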

Additional observations from a re-analysis of the deposited data

Results flagged for a closer look

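In 96 groups of 5 libraries (each named gene and marker share in each group), 6 held a highest or lowest library whose gap to its nearest neighbour took an unusually large part of the group's range, by Dixon's criterion. Chance alone marks about 1 in 20 groups, so 6 of 96 is near that number. None of the 10 synthesis genes was among them. Slc25a13 was at 5.12 CPM in exercise 8, above the other exercise libraries. Glul was at 712 CPM in exercise 9, above the other exercise libraries. Mthfd2l was at 1.73 CPM in sedentary 1, below the other sedentary libraries. The beta cell marker share, which is of library totals, was 9.01% in exercise 9, the lowest of its group. In TMM-scaled CPM, 7 of the 10 synthesis genes had their highest exercise level in that library, whose TMM factor was the lowest, 0.669. The stomach marker share was 0.000236% in exercise 6 and 0.514% in sedentary 1, each the highest of its group.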

How the results depend on the processing

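RLE factors, a minimum count of 30 and scaling without marker genes changed no call or direction of the values given. Without the filter on low counts 1 gene call was lost. With either covariate no gene of all those tested was called, so each count of 0 for these fits is no result about the genes counted. The members past the threshold toward exercise (5) were 0 with either covariate, and those toward sedentary (0) were 1 with DESeq2 and with library totals, and 0 to 1 with 1 library left out. Over the 5 related lists, the 24 genes that rose were 0 with either covariate, 11 with library totals and 12 to 27 with 1 library left out (12 without exercise 7, 15 without exercise 9). The 16 that fell were 25 with DESeq2, 34 with library totals, 5 with limma-voom, 0 with either covariate and 8 to 27 with 1 library left out. They were 8 without exercise 7 or 8, 9 without exercise 9 or 10 or sedentary 1, and 27 without sedentary 4. The cause of these changes was not tested. Over all genes, higher and lower calls were 1097 and 2642 with DESeq2, 177 and 339 with limma-voom and 159 and 4408 with library totals, where 374 and 1745 stood otherwise. Library totals moved the median log2 fold change of all genes by -0.34, and turned the sign of Mthfd1 (-0.29), Mthfd2l (-0.08) and Atf4 (-0.15). The intestinal covariate turned that of Mthfd2 (-0.0005), Aldh18a1 (1.03), Pycr1 (-0.65), Cth (0.91), Cbs (-0.54), Aldh1l2 (-0.25), Mthfd1 (-0.08), Mthfd1l (-0.53), Mthfd2l (-0.13), Gss (0.84), Mpst (0.24), Oat (0.51), Pepd (0.29), Pycrl (0.10), Prodh (2.21), Slc25a13 (0.19), Glul (-0.38), Atf4 (-0.48) and Trib3 (-0.09). The acinar covariate turned that of Cbs (-0.08) and Ddit3 (0.06), and limma-voom turned that of Prodh (0.04). Leaving out sedentary 1 and 2 turned that of Aldh18a1 (0.19), Prodh (0.88) and the beta cell share (-4.54 points). Leaving out 1 library turned that of Mthfd1 (-0.06 to 0.12, below 0 without sedentary 1), Prodh (-0.49 to 0.25, above 0 without sedentary 2) and the beta cell share (-0.612 to 4.93 points, below 0 without sedentary 1). The acinar share difference of 8.06 points was 8.19 without sedentary 1 and 2 and 6.46 to 8.98 with 1 library left out. It did not pass without sedentary 1 and 2 (adjusted p = 0.0655, exact permutation test), nor without any 1 exercise library (adjusted p up to 0.175, exact permutation test). The groups did not overlap in any of these cases. Without sedentary 1 and 2 the unadjusted p was 0.0357 where 56 arrangements allow no less than 0.0179, so few arrangements limit this test. The intestinal difference of -0.894 points was -0.358 without sedentary 1 and 2 and -1.05 to -0.611 with 1 library left out, and its call was lost in the same cases. The Psph call was lost in 9 of 10 such fits and that of Shmt2 was gained without sedentary 1. The lowest levels, such as those of Shmt1 and Aspa in exercise, carry the most counting error. No paired analysis was possible because the labels number the libraries 1 to 10 with no number shared by the groups.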
